A study of Mus musculus with 10 samples.

Results

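Immune checkpoint genes were followed in orthotopic pancreatic tumors of normoglycemic and hyperglycemic mice. The group held 10 genes chosen by name, Cd274, Pdcd1lg2, Cd80, Cd86, Pdcd1, Ctla4, Lag3, Havcr2, Tigit and Ido1, and each was found under its mouse Ensembl identifier among the 55359 genes of the table. The tumors were grown from luciferase-expressing KPC K8484 cells, a pancreatic cancer line of the mouse, injected into the pancreas of immunocompetent C57BL/6 mice (C57BL/6 J in the methods) at 10 weeks of age. CTRL mice (5 tumors) drank regular water and D30 mice (5 tumors) drank water with 30% dextrose, for 14 days. All tumors therefore stem from 1 cultured line, and neither group was described as having received chemotherapy. Sample titles use the word PDX, whereas the source given for every sample is the KPC line. The methods state equal numbers of male and female hosts, and the labels give no sex for single tumors.

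Checkpoint genes encode the molecules that restrain T cells after activation. Ligands on tumor cells, macrophages and dendritic cells (PD-L1 from Cd274, PD-L2 from Pdcd1lg2, B7-1 from Cd80 and B7-2 from Cd86) bind receptors on T cells (PD-1 from Pdcd1, CTLA-4 from Ctla4), and LAG-3, TIM-3 (Havcr2) and TIGIT are further inhibitory receptors of activated or exhausted lymphocytes, TIM-3 also being carried by myeloid cells. Ido1 encodes an enzyme that consumes tryptophan and is induced by interferon gamma. Pancreatic cancer is known for few T cells, many myeloid cells and a poor response to blockade of these molecules.

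The genes of both PD-1 ligands lie side by side on mouse chromosome 19, and their start regions are shown because the pair gave different estimates in the comparison below. In the GENCODE M21 annotation (GRCm38) Cd274 spans chr19:29367455-29388095 on the plus strand and Pdcd1lg2 starts 22824 bases beyond its end, at chr19:29410919-29471161, and positions of the other genes below follow the same annotation. RefSeq windows of 250 bases before to 50 bases after a gene's start (GRCm38.p6) were at hand for 7 of the 10 genes. Capitals mark any match, on either strand, to a pair of GAAA letters separated by NN (an interferon response element), TTCNNNGAA (a STAT site), TGANTCA (an AP-1 site) or ACGTG (the core of a hypoxia response element, also contained in the E-box CACGTG). The windows are given 5′ to 3′, for Cd274 at chr19:29367188-29367487 and for Pdcd1lg2 at chr19:29410669-29410968, both on the plus strand.
Cd274: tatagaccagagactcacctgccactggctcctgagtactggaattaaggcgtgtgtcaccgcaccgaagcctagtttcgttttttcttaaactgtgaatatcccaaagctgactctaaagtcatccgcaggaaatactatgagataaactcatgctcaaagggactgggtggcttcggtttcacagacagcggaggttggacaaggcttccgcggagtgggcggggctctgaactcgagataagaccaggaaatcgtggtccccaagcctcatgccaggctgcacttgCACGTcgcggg
Pdcd1lg2: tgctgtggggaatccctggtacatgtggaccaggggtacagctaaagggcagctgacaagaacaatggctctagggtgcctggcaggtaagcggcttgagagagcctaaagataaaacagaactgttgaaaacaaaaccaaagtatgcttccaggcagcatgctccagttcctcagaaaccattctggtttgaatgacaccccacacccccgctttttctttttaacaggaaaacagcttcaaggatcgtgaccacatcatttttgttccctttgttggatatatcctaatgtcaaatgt
The Cd274 window held 1 match, to ACGTG read on the minus strand, starting at base 290, and the Pdcd1lg2 window held none. ACGTG was found in 19.6% of all 32851 RefSeq windows of this length, and also in those of Ctla4, Havcr2 and Tigit. TGANTCA was found in 7.81% of all windows and in those of Cd80 and Havcr2. The spaced GAAA pair (3.44% of all windows) and TTCNNNGAA (8.30%) were in none of the 7 windows. These matches describe letters in a window and were not tied to any binding.

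Recovered reads per tumor ranged from 29915331 to 42122304 in CTRL and from 29192261 to 37126175 in D30. Tumors are named by their columns (N1, N2, N4, N5 and N6 in CTRL, T1, T2, T4, T5 and T7 in D30), which could not be matched to single animals. D30 tumor T4 was the only tumor with reads from 4 Y-linked genes (841 reads, against 0 in each other tumor). D30 tumor T5 had the fewest genes with a read, 20482 against 23446 to 25912 in the others, and no read of the T cell genes Cd3g, Cd8b1, Cd2 and Cd5. Krt18, a keratin of the tumor epithelium, ranged from 44919.6 to 148886 normalized counts, whereas Epcam was at most 191. Values are normalized counts, reads divided by the size factor of their library, and in such bulk tissue fewer cells of a type cannot be told apart from less RNA per cell.

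All 10 genes passed the filter of a mean of at least 1 normalized count, and none was differentially expressed in D30 tumors (limma, adjusted p under 0.05), where 2.76% of the 24560 tested genes were (1.4% higher and 1.36% lower). At an unadjusted p under 0.05 there was 1, Cd274, against 17.3% of all tested genes. Other tests on the recovered reads called 1 gene (edgeR, Cd274), 2 genes (DESeq2, Cd274 and Ido1) and 0 genes (limma-voom), where the share of all genes called was 4.13%, 8.17% and 4.08%. With limma and the D30 tumors T4 and T5 left out, 1 gene (Cd274) was called, where 9.97% of all genes were. Log2 fold changes were above 0 for 6 genes and below 0 for 4, against 45.3% above 0 among all tested genes, and with library-size scaling in place of the authors' size factors 4 were above 0. The median log2 fold change was 0.06 for the 10 genes and -0.06 for all tested genes. The SD was larger in D30 than in CTRL for 9 of the 10 genes, as it was for 78.2% of all tested genes. T5 held the highest value of all tumors for 7 of the genes, T4 for 2 and N1 for 1. The share of all tested genes that were highest in T5 was not counted, so these counts have no background beside them.

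**Figure D1:**
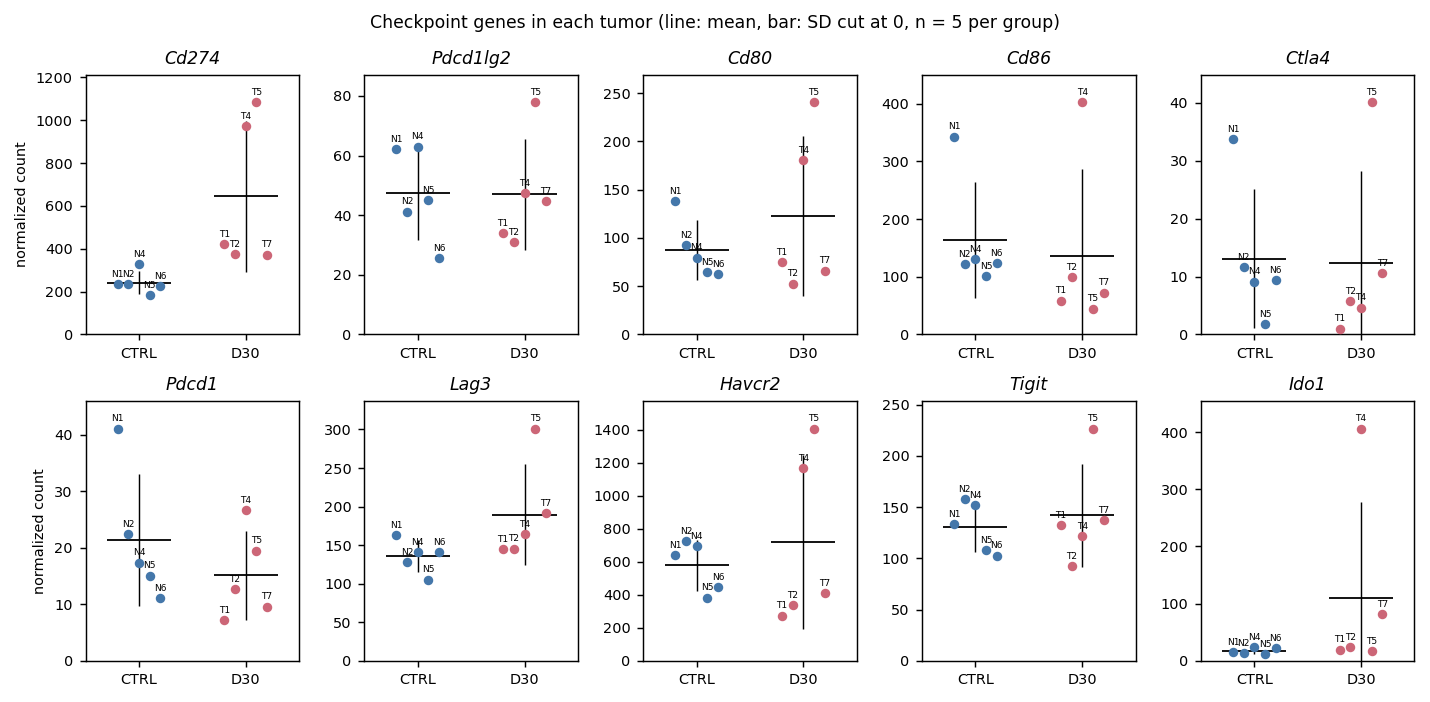
Normalized counts of the 10 checkpoint genes in each tumor, CTRL in blue and D30 in red, with the mean (line) and SD (bar, cut at 0) of 5 tumors per group and a separate linear axis per gene. For Cd274 all D30 tumors lie above all CTRL tumors, and T4 and T5 stand above the other D30 tumors in Cd274, Cd80 and Havcr2.

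Cd274, the gene of PD-L1, was the only one of the 10 whose groups did not overlap, where 6.19% of all tested genes did not. In CTRL tumors it had 234 (N1), 236 (N2), 330 (N4), 183 (N5) and 227 (N6) normalized counts. In D30 tumors it had 422 (T1), 375 (T2), 973 (T4), 1083 (T5) and 373 (T7). Every D30 tumor was above every CTRL tumor, a pattern that 2.87% of all tested genes showed in this direction, and T4 and T5 were above the other D30 tumors by more than the range of the CTRL group. The mean was 242 ± 53.6 in CTRL and 645 ± 352 in D30 (SD, n = 5 each), a ratio of 2.67. The log2 fold change was 1.27 (standard error 0.337, 95% interval 0.54 to 1.997), and with an adjusted p of 0.0653 (limma with Benjamini-Hochberg adjustment) it missed the threshold. The call depended on the test. edgeR gave a log2 fold change of 1.43 with an adjusted p of 0.0429, and DESeq2 gave 1.41 with an adjusted p of 0.00300. Without T4 and T5 the difference was smaller, 0.71, and the limma adjusted p was 0.0443, a selection made after the values were seen. With any 1 tumor left out the log2 fold change stayed between 1.04 and 1.42 and the limma adjusted p between 0.0566 and 0.162.

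Of the 8 other protein-coding genes within 250 kb of Cd274, all were tested and none was called, with log2 fold changes from -0.10 to 0.50. Jak2, the kinase of the interferon gamma receptor, lies in this stretch and had a log2 fold change of -0.10 (limma adjusted p = 0.843), and Plgrkt, 65 bases away on the opposite strand, had 0.22 (limma adjusted p = 0.799). The exons of Cd274 overlap those of an antisense gene, AC119228.1, which had means of 22.8 normalized counts in CTRL and 30.6 in D30. Libraries were strand-specific, but the strand setting of the counting is not given in the sources used here, so reads of this pair may not be fully separated.

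Pdcd1lg2, the gene of the second PD-1 ligand, PD-L2, had nearly equal means. Its values in CTRL tumors were 62.1 (N1), 41.2 (N2), 63.0 (N4), 45.1 (N5) and 25.7 (N6) normalized counts. In D30 tumors they were 33.9 (T1), 30.9 (T2), 47.4 (T4), 77.8 (T5) and 44.7 (T7). The groups overlapped, and only T5 was above the CTRL range. Its log2 fold change was -0.02 with a 95% interval of -0.84 to 0.79 (limma adjusted p = 0.985). Its sign turned when 1 of N1 (0.09), N4 (0.10), T1 (0.07) or T2 (0.11) was left out, and it was also above 0 with upper-quartile scaling (0.02). The neighbouring ligand genes therefore gave estimates of 1.27 and -0.02, and the difference between them was not tested.

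Cd80 and Cd86 encode the ligands shared by CD28, which stimulates T cells, and CTLA-4, which restrains them. Cd80 (chr16:38455561-38496335, plus strand) had 138 (N1), 92.5 (N2), 79.5 (N4), 64.6 (N5) and 62.5 (N6) normalized counts in CTRL tumors. In D30 tumors Cd80 had 75.1 (T1), 52.7 (T2), 180.4 (T4), 240.4 (T5) and 66.0 (T7). T4 and T5 were above all CTRL tumors and T2 was below them, so that the groups overlapped. For Cd80 the log2 fold change was 0.29, with a 95% interval of -0.66 to 1.24 (limma adjusted p = 0.783), and it was -0.01 without T5 and -0.38 without both T4 and T5. Of the 12 tested protein-coding neighbours within 250 kb of Cd80, 1 was called, Nr1i2 (log2 fold change 2.12, limma adjusted p = 0.0253).

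Cd86 (chr16:36603869-36666081, minus strand) had 343 (N1), 122 (N2), 131 (N4), 101 (N5) and 123 (N6) normalized counts in CTRL tumors. In D30 tumors Cd86 had 58.6 (T1), 99.7 (T2), 402.5 (T4), 44.6 (T5) and 72.4 (T7). Of the D30 tumors 4 lay below the CTRL range and T4 lay above it. Its log2 fold change was -0.62, with a 95% interval of -1.80 to 0.55 (limma adjusted p = 0.604). It was -1.14 without T4 and -0.32 without N1, so each of the 2 high tumors moved the estimate, and neither fit reached the threshold (limma adjusted p = 0.0906 and 0.806). DESeq2 gave Cd86 no adjusted p. Cd86 was lowest of all tumors in T5, where Cd274, Pdcd1lg2 and Cd80 were highest, so the ligands did not share 1 order of tumors.

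The receptor genes Pdcd1 and Ctla4 had the lowest levels per length. Pdcd1 (chr1:94038305-94052553, minus strand) had 41.0 (N1), 22.4 (N2), 17.4 (N4), 15.05 (N5) and 11.1 (N6) normalized counts in CTRL tumors. In D30 tumors Pdcd1 had 7.20 (T1), 12.6 (T2), 26.6 (T4), 19.5 (T5) and 9.59 (T7). T1 and T7 were below the CTRL range and no D30 tumor was above it. For Pdcd1 the log2 fold change was -0.48, with a 95% interval of -1.52 to 0.57 (limma adjusted p = 0.662), and it was -0.22 without N1.

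Ctla4, whose product is carried at high levels by regulatory T cells (chr1:60887000-60915832, plus strand), had 33.7 (N1), 11.6 (N2), 9.14 (N4), 1.77 (N5) and 9.41 (N6) normalized counts in CTRL tumors. In D30 tumors Ctla4 had 1.03 (T1), 5.73 (T2), 4.63 (T4), 40.1 (T5) and 10.7 (T7). N5 and T1 rested on 2 and 1 reads, under a floor of 3 reads, and N1 and T5 were each far above the rest of their group. For Ctla4 the estimate on the log2 scale was -0.36, with a 95% interval of -2.11 to 1.39 (limma adjusted p = 0.865), so the interval takes in large changes in either direction. It was 0.07 without N1 and 0.14 without T1. Of the 7 markers of regulatory T cells, limma called 1, Il2ra. Foxp3, the defining transcription factor of these cells, had 5.26 to 18.8 normalized counts in CTRL and 0 to 6.17 in D30 (limma adjusted p = 0.124). In T5, the tumor where Ctla4 was highest, Foxp3 and Il2ra had 0 reads, whereas Lrrc32 (783), Il10 (49.2) and Ccr8 (8.01) of the same list had their highest normalized counts of all tumors. Il2ra, a receptor chain on regulatory and activated T cells, fell from 184 ± 20.5 to 7.58 ± 11.4 normalized counts (SD, n = 5 each), a log2 fold change of -5.51 (limma with Benjamini-Hochberg adjustment, adjusted p = 0.00338). Its CTRL values ran from 159 to 212, where the summed T cell genes described below ran from 462 to 926. Which cells the reads of Il2ra came from was not tested. Summed over the 7 markers of regulatory T cells, levels ran from 506 to 855 in CTRL and from 105 to 872 in D30. The part of these markers in the values of Ctla4 was not tested.

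Lag3, Havcr2 and Tigit had higher levels per length. Lag3 (chr6:124904361-124911705, minus strand) had 163 (N1), 128 (N2), 141 (N4), 105 (N5) and 141 (N6) normalized counts in CTRL tumors. In D30 tumors Lag3 had 145 (T1), 145 (T2), 164 (T4), 301 (T5) and 192 (T7). No D30 tumor was below the median of the CTRL group, and T4, T5 and T7 were above its range. For Lag3 the log2 fold change was 0.44, with a 95% interval of -0.15 to 1.02 (limma adjusted p = 0.440), and it was 0.26 without T5.

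Havcr2, the gene of TIM-3 (chr11:46454935-46481255, plus strand), had 643 (N1), 724 (N2), 697 (N4), 383 (N5) and 447 (N6) normalized counts in CTRL tumors. In D30 tumors Havcr2 had 273 (T1), 338 (T2), 1169 (T4), 1408 (T5) and 412 (T7). T4 and T5 were above every CTRL tumor and T1 and T2 below every one of them. On the log2 scale the fold change was 0.03, with a 95% interval of -0.91 to 0.97 (limma adjusted p = 0.979). It was -0.22 without T4, -0.29 without T5, -0.10 without N5 and -0.05 without N6, and without both T4 and T5 it was -0.74 (limma adjusted p = 0.0686). Library-size scaling, which moved the median of all tested genes from -0.06 to -0.27, gave -0.19 for Havcr2.

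Tigit (chr16:43648867-43664146, minus strand) had 134 (N1), 158 (N2), 152 (N4), 108 (N5) and 103 (N6) normalized counts in CTRL tumors. In D30 tumors Tigit had 133 (T1), 92.8 (T2), 121 (T4), 227 (T5) and 137 (T7). T5 was above and T2 below the CTRL range, and the other D30 tumors were within it. The log2 fold change was 0.08, with a 95% interval of -0.54 to 0.70 (limma adjusted p = 0.922), -0.10 without T5 and -0.0025 without N6. With library-size scaling it was -0.14.

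**Figure D2:**
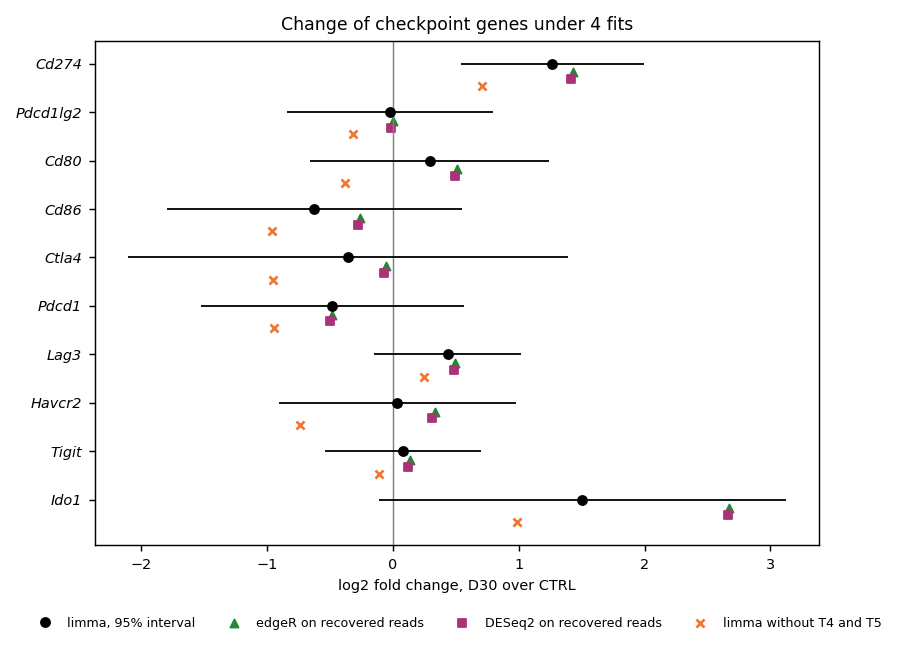
Log2 fold change of each checkpoint gene, D30 over CTRL, from limma on all 10 tumors (black points with 95% intervals), edgeR and DESeq2 on recovered reads, and limma without T4 and T5. The limma interval lies wholly above 0 for Cd274 (0.54 to 1.997) and includes 0 for the other genes, and without T4 and T5 the estimates for Cd80, Havcr2 and Tigit lie below 0.

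Ido1 (chr8:24584136-24597009, minus strand) had low counts in CTRL tumors, at 15.8 (N1), 13.0 (N2), 23.8 (N4), 11.5 (N5) and 22.2 (N6). In D30 tumors Ido1 had 19.5 (T1), 24.1 (T2), 406 (T4), 17.2 (T5) and 81.0 (T7) normalized counts. T4 and T7 stood above all other tumors, T2 was just above the CTRL range, and T1 and T5 were within it. The mean was 17.3 ± 5.49 in CTRL and 109.5 ± 168 in D30 (SD, n = 5 each). The log2 fold change was 1.51, with a 95% interval of -0.11 to 3.12 (limma adjusted p = 0.324), and it was 0.75 without T4. DESeq2 gave 2.67 with an adjusted p of 0.00836 and edgeR gave 2.67 with an adjusted p of 0.104, so that Ido1 was called by DESeq2 alone of the 4 tests. Beside the level of Ido1 in T4, and chosen after its values were seen, Ifng, the gene of interferon gamma, had 17.3 normalized counts in T4 and at most 1.83 in any other tumor. The lymphocyte cytotoxicity gene Prf1 had 18.5 in T4 and at most 1.15 in the other D30 tumors, where CTRL tumors had 10.5 to 14.5. T4 was also the tumor with Y-linked reads, and the part of these differences in the value of Ido1 was not tested. Ido2, the paralog 7803 bases from Ido1, was not called. Of the 6 other protein-coding genes within 250 kb of Ido1, 2 were called, both lower in D30. These were Adam3 (log2 fold change -1.88, limma adjusted p = 0.00899) and Adam5 (-2.78, limma adjusted p = 0.0285).

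Levels were compared between genes as RPKM, recovered reads divided by exon length in kilobases and by the total of the library. Exon length took all GENCODE M21 exons of a gene together, 919 bases for Tigit and 3622 for Cd274. The annotation used for counting is not given, so the order between genes rests on these lengths. By the median of 10 tumors on this scale the order was Havcr2 (6.44), Tigit (4.31), Cd274 (2.92), Lag3 (2.07), Cd86 (0.990), Pdcd1lg2 (0.678), Cd80 (0.632), Ido1 (0.355), Pdcd1 (0.257) and Ctla4 (0.127). Havcr2 was above Tigit in 9 of 10 tumors and Pdcd1 above Ctla4 in 9, whereas Pdcd1lg2 was above Cd80 in 4 and Ido1 above Pdcd1 in 6. In CTRL tumors Cd274 had a mean of 2.14 ± 0.436 (SD, n = 5) on this scale and Lag3 had 2.06 ± 0.311, so these did not differ beyond their spread, while in D30 Cd274 had 4.72 ± 2.19 and Lag3 had 2.46 ± 0.776. The PD-L1 gene was thus present at more reads per length than the PD-L2 gene in every tumor, with a lowest value of 1.62 against a highest of 1.04.

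**Figure D3:**
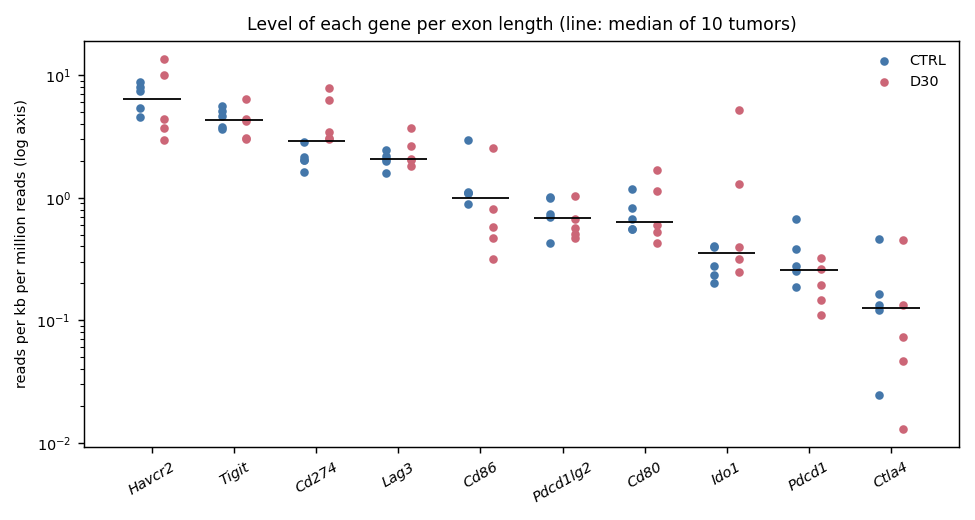
Level of each checkpoint gene in RPKM (reads per kb of exon and library total), on a log axis, one point per tumor (CTRL blue, D30 red) with the median of 10 tumors as a line. Medians fall from 6.44 for Havcr2 to 0.127 for Ctla4, and the ranges of neighbouring genes overlap.

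Receptor levels were set beside those of 13 T cell genes. Havcr2 exceeded all 13 on the scale per length in every tumor, and Tigit and Lag3 exceeded 11 of them in every tumor, whereas Pdcd1 exceeded 3 and Ctla4 none. The highest T cell gene by median was Trac, the constant region of the T cell receptor alpha chain, at 3.06 RPKM, below Havcr2 and Tigit. The macrophage gene Csf1r, a receptor that macrophages depend on, had a median of 11.2, above Havcr2. Adgre1, another macrophage gene, had a median of 4.56, between those of Tigit and Havcr2. Whether reads of Havcr2, Tigit and Lag3 came from T cells was not tested.

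The summed T cell genes were lower in most D30 tumors, from 298 to 510 normalized counts against 462 to 926 in CTRL, with all 13 log2 fold changes below 0 (12 of 13 without T4 and T5) and none called by limma or edgeR, while DESeq2 called 1 lower. Macrophage markers summed to 25183 to 38593 in CTRL and 16328 to 35984 in D30, of which T4 had the highest D30 value. Of the 10 macrophage genes 8 were below 0, and 1, Csf1r, fell with a log2 fold change of -1.06 (limma with Benjamini-Hochberg adjustment, adjusted p = 0.0449), a call lost without N1, N2, N4, N5, N6, T1, T5 or T7 (adjusted p up to 0.147) or without the filter on low counts (adjusted p = 0.0553). The leukocyte genes overlapped almost fully, at 6489 to 10450 and 6113 to 9667. The part of these shifts in the checkpoint values was not tested. As a description, the ratios below set each gene against a marker list of cells known to carry it. Cd274 was set against leukocytes only, although tumor cells also carry PD-L1. The summed tumor epithelium genes were higher in every D30 tumor (377561 to 500428 normalized counts) than in any CTRL tumor (224679 to 355284). A ratio of Cd274 to that sum was not formed. Havcr2 was set against T cells only, although myeloid cells also carry TIM-3, and its ratio to the macrophage genes was not formed.

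Relative to the leukocyte sum, the log2 ratio of Cd274 lay between -5.48 and -4.63 in CTRL and between -4.21 and -3.03 in D30, and the groups did not overlap, as for 3.58% of all tested genes set against the same sum in this direction. Relative to the T cell sum, Lag3 had -2.50 to -1.84 in CTRL and -1.80 to 0.02 in D30, which did not overlap either, although T2 lay close to the CTRL range, and the groups overlapped when the mean log2 of the T cell genes replaced their sum. Against this T cell sum 12.3% of all tested genes lay above in every D30 tumor. The mean differences were 1.37 for Cd274 and 1.07 for Lag3. Havcr2 (0.67), Tigit (0.72), Ctla4 (0.28) and Pdcd1 (0.16) against T cells, Cd80 (0.86) and Pdcd1lg2 (0.55) against macrophages and Ido1 (1.61) against leukocytes had mean differences above 0 with groups that overlapped. Cd86 against macrophages had -0.06. A lower denominator raises all ratios that share it, so the 5 receptor ratios are not separate observations.

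**Figure D4:**
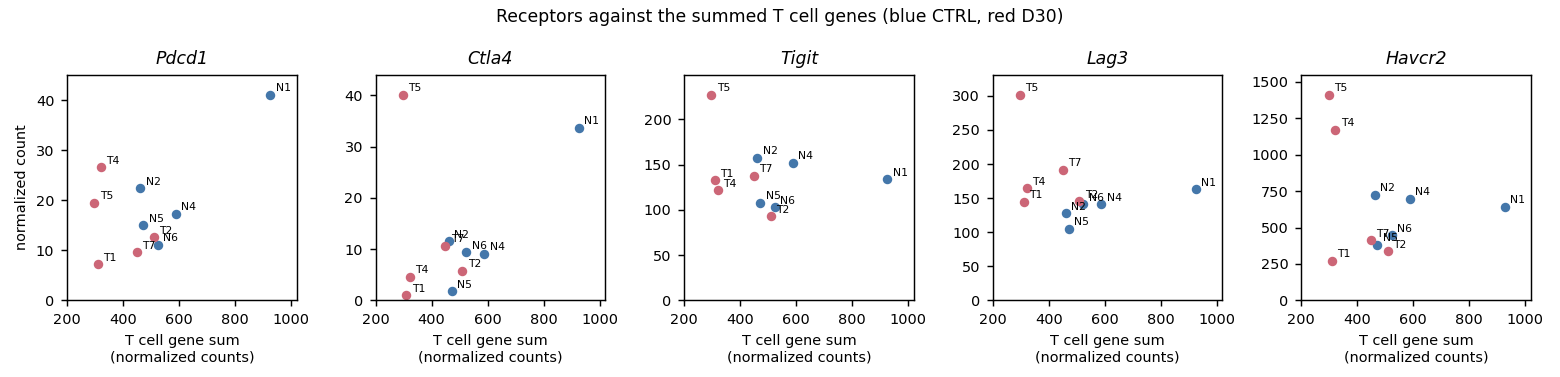
Normalized counts of the 5 receptor genes against the summed normalized counts of 13 T cell genes, one point per tumor (CTRL blue, D30 red), with linear axes. N1 lies farthest right, with a T cell sum of 926, and T5 lies highest for Ctla4, Tigit, Lag3 and Havcr2 at the lowest sum, 298.

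Further genes of the pathway were compared in 5 lists of 77 genes, 74 of them tested. Of these, 2 were called, both higher in D30, a share of 2.703% beside 2.76% of all tested genes, and DESeq2 called 10 of the 77, or 13.0%, beside 8.17% of all genes. Other inhibitory receptors and ligands numbered 27, of which limma called 1 higher and none lower, limma with library-size scaling 1 higher and 2 lower (Igsf11 and Sirpa), and DESeq2 3 higher and 2 lower. Ceacam1, an adhesion molecule of epithelia and activated lymphocytes, had 55 to 102 normalized counts in CTRL tumors. Its D30 values were 286 (T1), 1180 (T2), 136 (T4), 640 (T5) and 467 (T7), all above the CTRL range. Ceacam1 had a log2 fold change of 2.45 (standard error 0.482; limma with Benjamini-Hochberg adjustment, adjusted p = 0.0168), and the adjusted p was 0.0529 without N5. Igsf11, a ligand of the inhibitory receptor VISTA, had the next smallest p, with means of 8.25 and 1.56 normalized counts (limma adjusted p = 0.0627). The list's median was -0.30, with 12 of 27 above 0 (8 of 27 with library-size scaling), whereas edgeR gave a median of 0.17 over the 22 of its genes it fitted.

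Of the costimulatory list, which holds CD28, ICOS and receptors of the tumor necrosis factor family with their ligands, 11 of 13 genes were tested, and limma called 1 higher and none lower, where DESeq2 called 2 higher. Tnfsf9, the ligand of 4-1BB, had 264 (N1), 286 (N2), 406 (N4), 312 (N5) and 316 (N6) normalized counts in CTRL tumors. In D30 tumors it had 507 (T1), 514 (T2), 547 (T4), 549 (T5) and 621 (T7). The groups did not overlap and the D30 tumors lay close together, with an SD of 45.2. Tnfsf9 had a log2 fold change of 0.80 (standard error 0.192; limma with Benjamini-Hochberg adjustment, adjusted p = 0.0432), a call lost without N1, N2, N5, N6, T1, T2 or T7 (adjusted p up to 0.146) and with library-size scaling (0.58, adjusted p = 0.130). Tnfrsf9, which encodes 4-1BB itself, had 273 to 577 in CTRL and 455 to 3451 in D30, with its highest values in T4 and T5, as for Cd274 (log2 fold change 1.51, limma adjusted p = 0.137). The list's median was -0.45, and it was -0.08 with edgeR over 9 genes and -0.09 with DESeq2 over 13.

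With limma no gene was called among the 10 of tryptophan and adenosine metabolism, where 4 had an unadjusted p under 0.05, or among the 16 of the interferon gamma axis, where 2 did, or among the 10 tested genes of T cell state, where 5 did, beside 17.3% of all tested genes. Nt5e, the enzyme CD73 that makes adenosine, had a log2 fold change of 1.06 (limma adjusted p = 0.176), and Entpd1, the enzyme CD39 upstream of it, had -0.92 (limma adjusted p = 0.0999). Irf1, the interferon-induced factor that acts on the PD-L1 gene, had means of 1428 ± 190 and 2003 ± 426 normalized counts (SD, n = 5 each), a log2 fold change of 0.47 (limma adjusted p = 0.218). Nlrc5, a regulator of class I antigen presentation and likewise induced by interferon gamma, had -0.51 (limma adjusted p = 0.279), so the 2 leading genes of this list pointed in opposite directions. The interferon gamma list was split evenly, 8 above and 8 below 0, and with library-size scaling 3 of 16 were above 0. Among genes of T cell state all 10 log2 fold changes were below 0, while 1 of 10 was above 0 with upper-quartile scaling and 1 of 11 with DESeq2. Prf1 (-2.45, limma adjusted p = 0.101) and Nr4a2, an early factor of activated and exhausted T cells (-0.73, limma adjusted p = 0.112), had the smallest p of that list. DESeq2 called no gene of the interferon gamma list, 2 of the tryptophan and adenosine list and 1 of the T cell state list, beside its 8.17% of all genes, and edgeR called none of the 3 lists' genes.

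**Figure D5:**
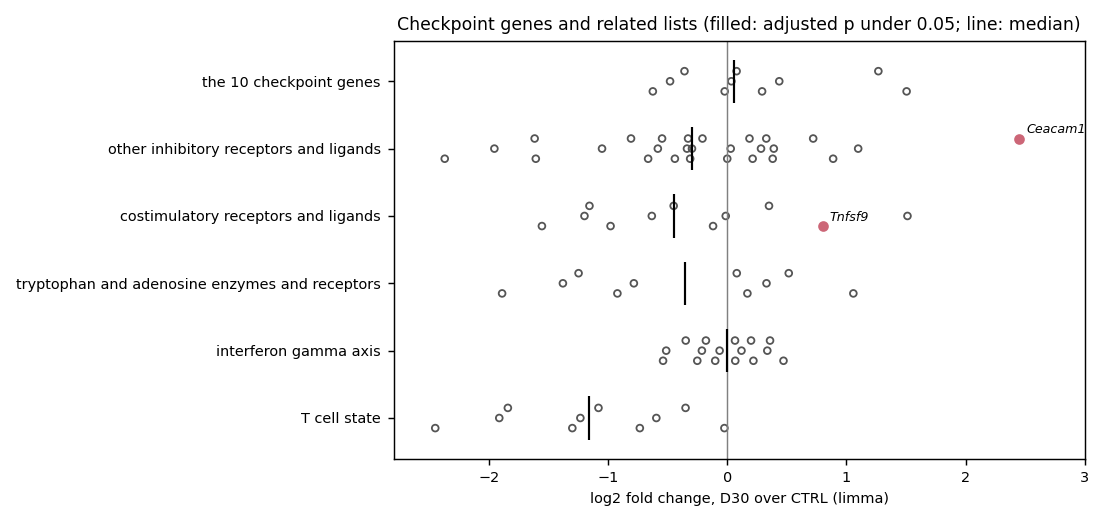
Log2 fold changes, D30 over CTRL, of the 10 checkpoint genes and of 5 lists of related genes, one circle per tested gene, filled where the limma adjusted p was under 0.05, with the median as a line. Ceacam1 (2.45) and Tnfsf9 (0.80) are the only filled circles, and the T cell state genes all lie below 0, where 1 of 10 was above 0 with upper-quartile scaling and 1 of 11 with DESeq2.

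For each checkpoint gene the coding genes with the most similar profile over the 10 tumors were found among 16540 by Pearson correlation of log2(normalized count + 1), as a description with all values from the same libraries. Cd274 was most like Arpc2 (r = 0.99, Spearman rho = 0.99), H2afy (r = 0.99, rho = 0.90) and Pex14 (r = 0.98, rho = 0.90). Pdcd1lg2 was most like Riok1 (r = 0.91), Zscan4f and Zwint, Cd80 like Dok1 (r = 0.97), Gars and Lrrc9, and Cd86 like Clec4n (r = 0.98), Orc5 and Asf1a. Among receptors, Pdcd1 was most like Kcnk2 (r = 0.97), Galc and Eif4e3, and Ctla4 like Zfp105 (r = 0.95), Catip and Tex14. Lag3 was most like Syt5 (r = 0.97), H2-Q7 and Ndrg2, Havcr2 like Oscp1 (r = 0.98), Nol7 and Pstpip1, and Tigit like Hus1b (r = 0.94), Loxl2 and Ccn1. The profiles of Zscan4f, Lrrc9 and Hus1b rested on few reads. Their mean normalized counts were 2.49, 0.748 and 2.23 in CTRL and 3.39, 1.61 and 2.69 in D30. The profile of Ido1 was most like that of 2310011J03Rik (r = 0.97, rho = 0.66), Snrpd3 and Trir, where the lower rho goes with the high values of T4 and T7. No checkpoint gene was among the 3 most similar genes of another. Between checkpoint genes r ran from -0.34 (Cd86 with Tigit) to 0.89 (Cd80 with Havcr2).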

How the data were processed

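Strand-specific libraries of tumor RNA were read in pairs. The submitters' processing notes name CASAVA, FastQC, Trim Galore, STAR 2.7.0e and DESeq2 with the build GRCm39, while the methods name hg38. The annotation release and the counting settings are not given in the sources used here. The authors deposited a normalized signal per gene and tumor, in the form of DESeq2's normalized counts. Each column was a multiple of 1 step, and 100.0% of values came out as whole reads within 0.01 of a read. N columns were taken as CTRL and T columns as D30.

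Names, exon lengths and positions came from GENCODE M21 (GRCm38), matched by identifier without version for 94.1% of genes. limma 3.58.1 (R 4.3.3) with a mean-variance trend was fitted to log2(normalized count + 1) for genes with a mean of at least 1, and the Benjamini-Hochberg adjustment covered all genes tested. Folds on this scale understate changes of low genes. edgeR 4.0.16 (quasi-likelihood), DESeq2 1.42.0 and limma-voom were run on recovered reads, and other pseudocounts, filters, scalings and left-out tumors were tried. Each test was checked on simulated counts. The 10 genes and all lists were chosen with earlier results of these data known. Named besides them are called genes and the 2 with the smallest p of each pathway list, called marker genes and the first 2 of each marker list where they stand beside a result, and the 3 genes most like each checkpoint gene. Coding neighbours within 250 kb and Ifng were added. The marker genes Epcam, Cd3g, Cd8b1, Cd2, Cd5, Trac, Lrrc32, Il10 and Ccr8 were also named outside this rule. The series text describes 5 independent biological replicates per group.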

Additional observations from a re-analysis of the deposited data

Results flagged for a closer look

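Each checkpoint gene was examined in each group for a tumor far from the other 4 by Dixon's test at the 95% level, in 20 groups of values. For normally distributed values chance flags about 1 in 20 such groups, and 4 were found, all of them high values. The test used normalized counts without a log scale, and the genes share the same tumors. The 20 groups are therefore not separate draws, and the 4 flags cannot be weighed against that rate. Cd86 had 343 normalized counts in CTRL tumor N1, where the nearest other CTRL tumor had 131. Cd86 also had 402.5 in D30 tumor T4, where the nearest other D30 tumor had 99.7. Ctla4 had 40.1 in D30 tumor T5, where the nearest had 10.7. Ido1 had 406 in D30 tumor T4, where the nearest had 81.0.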

How the results depend on the processing

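No paired analysis was possible because the column numbers are not the replicate numbers of the labels. No checkpoint gene was called under the pseudocounts, filters and scalings tried, with limma-voom, or with any 1 tumor left out (0 to 0), but edgeR called 1, DESeq2 2, and limma without T4 and T5, an alternative chosen after seeing the data, 1. Over all genes 678 calls became 1833 with DESeq2 and 2418 without T4 and T5, and ran from 279 (without N2) to 1573 (without T4) with 1 tumor left out, with 340 without N5, 332 without N6 and 433 without T7. Of the 678, 344 were higher in D30, against 240 of 864 with library-size scaling and 457 of 707 with edgeR. Of the related pathway genes 2 were called, 4 with library-size scaling and 9 without T4 and T5, and from 0 (without N5) to 7 (without T4) with 1 tumor left out, with 1 without N1, N2, N6, T1, T2 or T7. Of the ratios to cell markers 2 did not overlap between groups, and 1 with the mean log2 of the markers, Cd274, where 3.38% of all tested genes lay above against the leukocytes. The sign turned for Pdcd1lg2 with upper-quartile scaling (0.023), edgeR (0.0013) and limma-voom (0.0057), for Havcr2 with library-size scaling (-0.19) and without T4 and T5 (-0.74), for Tigit in the same alternatives (-0.14 and -0.11), and for Cd80 without T4 and T5 (-0.38). With 1 tumor left out, log2 fold changes ran from -0.22 to 0.11 for Pdcd1lg2, -0.012 to 0.53 for Cd80, -0.94 to 0.14 for Ctla4, -0.29 to 0.30 for Havcr2 and -0.10 to 0.22 for Tigit. The cause was not tested. Cd274, Lag3 and Ido1 stayed above 0 and Cd86 and Pdcd1 below 0 in every alternative run. Ctla4 and Pdcd1 had at most 39 reads in a tumor, and how far depth or the spread among tumors limits each gene was not tested.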

Other observations

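Marker lists of other cell types were described in the same tumors, with limma calling no gene where none is named. DESeq2 called 2 genes of the tumor epithelium higher, 1 fibroblast and 1 dendritic cell gene lower, and 1 B cell gene in each direction, and limma with library-size scaling called 1 dendritic cell and 1 B cell gene lower. The 6 neutrophil genes had log2 fold changes above 0 in all cases (5 of 6 with library-size scaling), with summed levels of 635 to 3129 normalized counts in CTRL and 749 to 15446 in D30. The 8 genes of the tumor epithelium summed to 224679 to 355284 in CTRL and 377561 to 500428 in D30, which did not overlap, with 7 of 8 above 0 (6 of 8 with library-size scaling). The 5 endothelial genes summed to 10275 to 17844 in CTRL and 4906 to 9409 in D30, without overlap. Of them 4 of 5 were below 0 (3 of 5 with edgeR, with DESeq2 or without T4 and T5). Cdh5, the cadherin of endothelial junctions, had the largest means of this list (11945 in CTRL and 4437 in D30) and so weighed most in the sum. Cdh5 fell with a log2 fold change of -1.45 (limma with Benjamini-Hochberg adjustment, adjusted p = 0.0117).

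Below 0 were 9 of 10 dendritic cell genes, 4 of 6 B cell genes, 5 of 6 tested NK cell genes, all 6 fibroblast genes, 5 of 6 acinar genes, 7 of 7 regulatory T cell genes (6 of 7 with upper-quartile scaling, 4 of 7 with DESeq2 and 3 of 4 with edgeR), 5 of 6 leukocyte genes (3 of 6 with upper-quartile scaling, edgeR or DESeq2) and the 5 tested genes of lymphoid follicles and high endothelium. With library-size scaling the dendritic cell and acinar counts were 10 of 10 and 6 of 6. The acinar enzymes Prss2, Ctrb1 and Cpa1 summed to 45084 normalized counts in CTRL tumor N6 and 23442 in N2, and to 4070 or less in every other tumor, T4 having the highest of these.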
